A study of Drosophila melanogaster with 48 samples.

Results

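The 8 genes described here act in the early mesoderm of Drosophila: the transcription factor genes Mef2, tin and bap, the FGF ligand genes pyr and ths, the FGF receptor gene htl, the receptor's adaptor gene stumps, and how, which encodes an RNA-binding protein. They are a listed set, 8 of 13946 protein-coding genes, and the regions examined are those whose summit lay within the dm6 gene body or 10 kb on either side in 10 deposited lists of accessible regions. Regions of different lists that overlapped by at least 1 bp were joined to 1 locus, which gave 272 loci around the 8 genes out of 82962 in all. A locus counted for a gene when a summit of at least 1 of its regions lay in the gene's window.

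The data come from ATAC-seq, an assay that maps open chromatin by the insertions of a transposase, with 48 libraries of S2 cells, a cultured Drosophila line with hemocyte character, all harvested 48 h after CuSO4 addition. Cells carried a copper-inducible full-length Grh (100 uM CuSO4), Zld (1000 uM) or Twi (40 uM), or only the DNA-binding domain (DBD) of Grh (20 uM) or Zld (100 uM), and each was set against wild-type S2 cells at the same dose. Titrations were made in the factor lines alone: the Grh line received 0, 25, 100 or 400 uM CuSO4, the Zld line 0, 500, 1000 or 1500 uM, and the line with HA-tagged Twi 0, 10, 40 or 160 uM. Libraries of the Grh DBD at 80 uM and the Zld DBD at 400 uM were also made, and the labels do not tie them to a list. The 24 groups held 2 libraries each. The sources used here do not say whether a line was a single clone, and the lists hold no expression value with which the cell type could be checked.

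Each list pooled libraries: a main list covered the factor line and its wild-type cells together, and a full-length titration list covered all doses. Depth per library is unknown, there is no value per replicate, and no test between conditions was possible. A region in a Twi list can come from wild-type cells as well as from cells with Twi, so presence in the lists of 1 factor does not show that the factor opened the region. Fold enrichments below are the authors' own for each region and are read only within 1 list. The lists held 44658 regions for Grh, 30394 for its titration, 29997 for the Grh DBD, 28164 for its titration, 33943 for Zld, 27064 for its titration, 34647 for the Zld DBD, 29048 for its titration, 71754 for Twi and 25397 for the HA-Twi titration.

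In the embryo, the bHLH factor Twist switches on the mesoderm programme. Mef2, a MADS-box factor of muscle differentiation, and tin, an NK homeobox gene of the heart and dorsal mesoderm, are among its known targets, and Tinman in turn is needed for bap, an NK homeobox gene of the visceral mesoderm. Pyramus and Thisbe are FGF ligands made next to the mesoderm that activate the receptor Heartless, and Stumps carries the signal from the receptor to the Ras pathway, so that mesoderm cells spread after gastrulation. Held out wings is a STAR-family RNA-binding protein of mesoderm, muscle and tendon cells. Grh is known for epidermal genes and Zld for activating the zygotic genome.

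The genes lie on chromosome arms 2R and 3R in dm6. Mef2 spans 2R:9913496-9958858, pyr 2R:11712263-11726345 and ths 2R:11756817-11814424. On 3R, stumps spans 3R:14577217-14608079, htl 3R:18045216-18052984, tin 3R:21378977-21381970, bap 3R:21388880-21390449 and how 3R:22042191-22079321. The genes tin and bap are 6909 bp apart and their windows share 11 loci, which are counted for both genes and once in the total. The genes pyr and ths are 30471 bp apart and share none. Other protein-coding genes reached into every window except that of htl, from 1 in that of pyr to 7 in that of how. The windows were long, with a median of 42473 bp around the 8 genes against 22161 bp over all protein-coding genes, so counts are given per 10 kb as well.

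All 10 lists shared at least 1 locus around each of the 8 genes, from 13 at how and 12 at Mef2 to 2 at bap and 1 at htl. Of the 272 loci, 50 were in all 10 lists, which is 18.4% (exact 95% binomial interval 14.0 to 23.5%), against 20.5% of all loci. Loci in Twi lists only numbered 97, or 35.7% (interval 30.0 to 41.7%), against 28.2% of all loci. Zld lists only held 16 loci, 5.88% (3.40 to 9.38%) against 4.63%, and Grh lists only held 20 loci, 7.35% (4.55 to 11.1%) against 8.84%. The other 89 loci were in lists of several factors but not in all 10, 32.7% against 37.8%. A single list held 127 of the 272 loci, 46.7% against 39.8% of all loci. The binomial intervals cover counting error over loci only, and loci are not replicates.

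Per 10 kb of window, the 8 genes together had 1.45 loci of all 10 lists, against 1.39 over the windows of all protein-coding genes. Loci of Twi lists only stood at 2.82 per 10 kb, against 1.81 over all gene windows. Those of Zld lists only stood at 0.465 against 0.303, and those of Grh lists only at 0.581 against 0.582. By this measure the classes of all lists and of Grh alone were close to the background, while the Twi-only and Zld-only classes were both denser. Loci of any class stood at 7.90 against 6.56. As medians per gene, the measure used for the further genes below, the 8 genes had 7.67 loci per 10 kb against 7.93. Those of all lists stood at 1.51 against 1.92, and those of Twi lists only at 2.85 against 1.69. Zld-only loci stood at 0.468 against 0.323 and Grh-only loci at 0.377 against 0.477. No test of these differences was made.

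**Figure D1:**
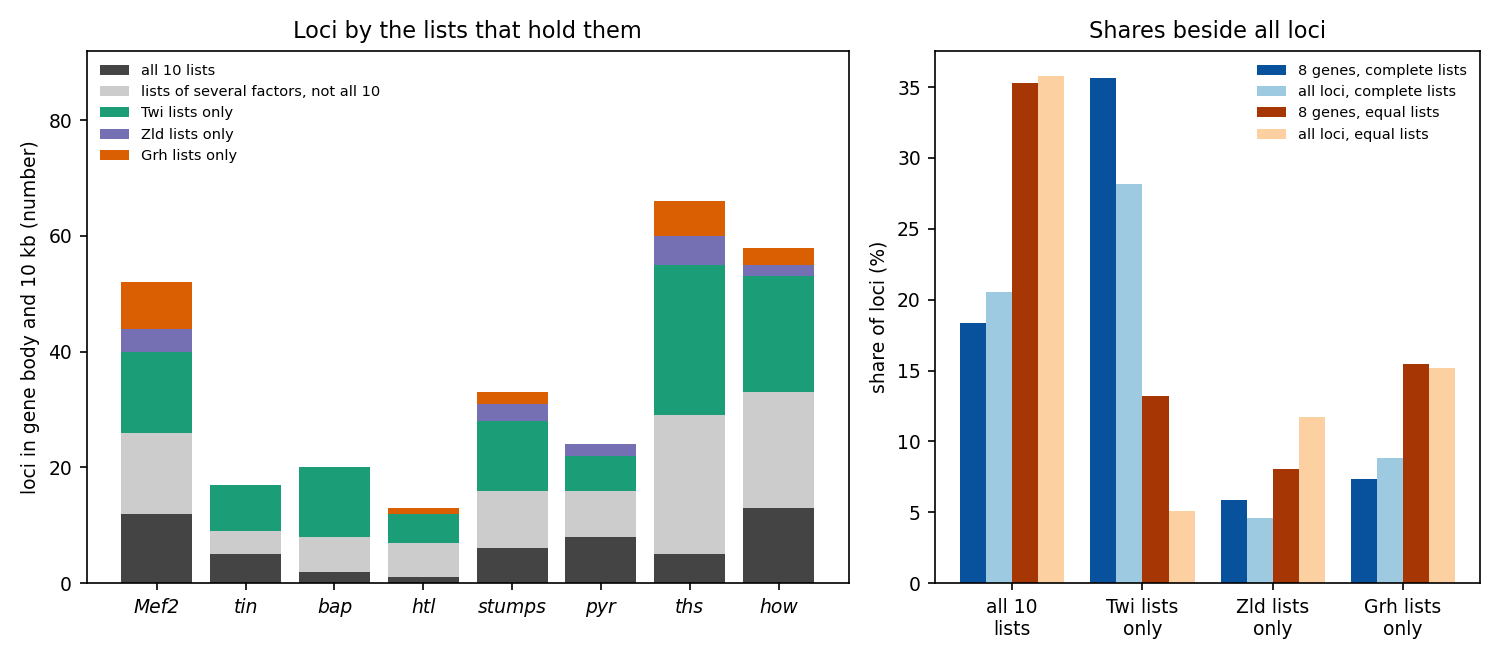
Left, loci in the window of each gene (number) by class; right, share of loci (%) in each class around the 8 genes and over all loci, with complete lists and with lists cut to equal length by −log10 q. Twi-only loci make up 26 of 66 at ths and 12 of 20 at bap, and 35.7% of the loci of the 8 genes against 28.2% of all loci with complete lists, 13.2% against 5.08% with equal lists.

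The class of Twi lists only was almost wholly one of the long Twi main list. Of its 97 loci, 96 were in the Twi list alone and in no other list, including that of the HA-Twi titration. Over all loci, 27.7% were in the Twi list alone, against 35.3% around the 8 genes. These 97 loci were weak: their fold enrichment in the Twi list ran from 1.30 to 3.31 with a median of 1.54, against 1.51 over all Twi-only loci. The 50 loci of all 10 lists had a median of 5.93 in the same list, against 4.89 over all loci of that class. Loci in both the Twi main list and the HA-Twi titration list, and in no list of Grh or Zld, numbered 1, at how, against 0.252% of all loci. For Zld there were 2 such loci, at stumps and pyr, against 0.365%, and for Grh 2, at Mef2 and ths, against 0.814%.

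**Figure D2:**
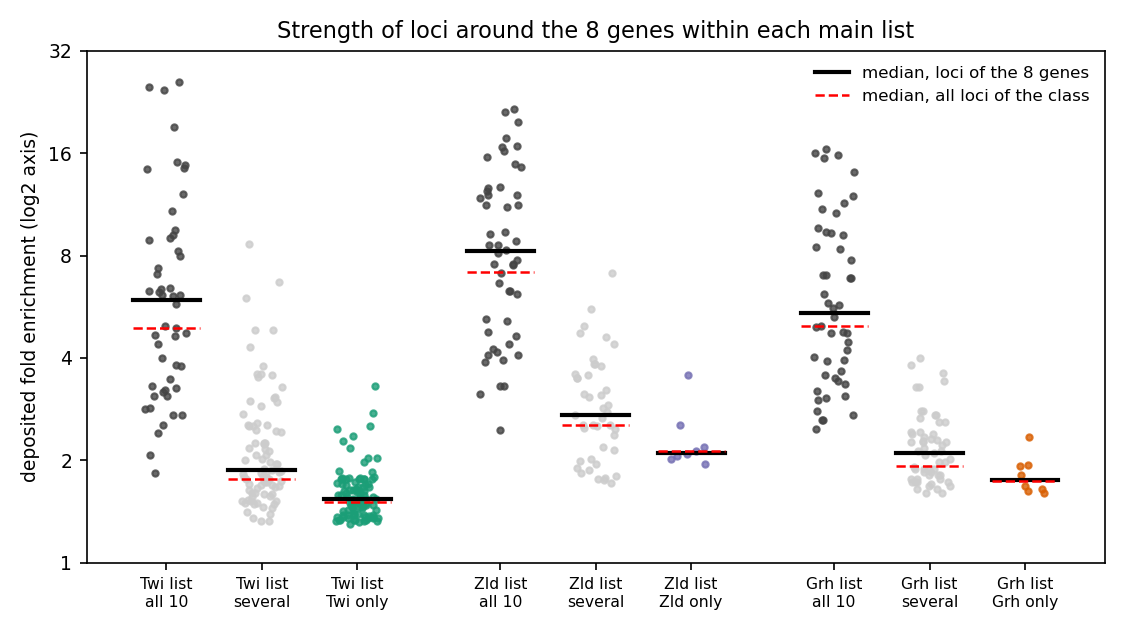
Deposited fold enrichment (log2 axis) of each locus around the 8 genes in the Twi, Zld and Grh main lists, by class; each point is the strongest region of 1 locus in that list, black bars are medians of the 8 genes and red dashes medians of all loci of the class. Twi-only loci lie between 1.30 and 3.31, loci of all 10 lists between 1.83 and 25.9 in the Twi list.

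When each list was cut to its 25397 regions with the highest −log10 q, so that all were as long as the shortest, fewer loci fell in the Twi class. Loci in Twi lists only then numbered 18 of 136, or 13.2%, against 5.08% of all loci. Their median fold enrichment was 2.43, and they fell at all 8 genes, from 1 each at tin and htl to 4 at how. Those at tin and htl were in the HA-Twi titration list alone, with folds of 1.49 and 1.97. That list was the shortest and was not cut, so it kept its weakest regions. With the complete lists, both loci were in lists of several factors. Of the 18 loci, 16 were in 1 list, and 10 were in lists of several factors when the complete lists were used. With equal lists, loci of all 10 lists numbered 48, or 35.3% against 35.8%. Loci of Zld lists only numbered 11, or 8.09% against 11.7%, and those of Grh lists only 21, or 15.4% against 15.2%. The share of Twi-only loci around the 8 genes was thus above that of all loci with complete and with equal lists, and most of these loci rest on a single list.

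With a −log10 q of at least 10 required in every list, Twi-only loci numbered 31 of 116, or 26.7% against 23.8% of all loci, and loci of all lists 36, or 31.0% against 33.2%. Zld-only loci then numbered 4, 3.45% against 3.37%, and Grh-only loci 7, 6.03% against 8.49%. With the 6 full-length lists alone, Twi-only loci numbered 116 of 266, or 43.6% against 35.5%, and loci of all 6 lists 58, or 21.8% against 23.6%. Zld-only loci numbered 9, 3.38% against 2.80%, and Grh-only loci 20, 7.52% against 8.44%. Among regions past the stricter limit, the Twi-only share around the 8 genes was thus close to the background.

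**Figure D3:**
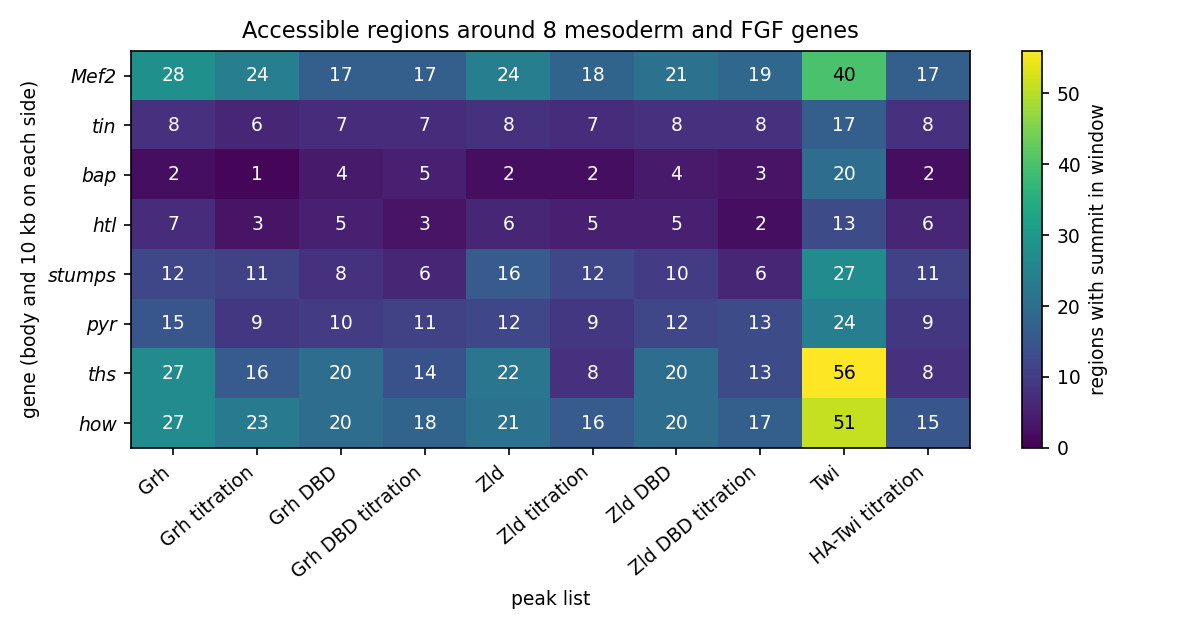
Regions in the window of each gene (number) in each of the 10 lists. The Twi list holds most regions at every gene, with 56 at ths and 51 at how, against 8 and 15 in the HA-Twi titration list.

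Several loci of all 10 lists at Mef2 ranked high in every list. Its window held 52 loci: 12 in all 10 lists, 14 in Twi lists only, 4 in Zld lists only, 8 in Grh lists only and 14 in lists of several factors. The locus 2R:9929576-9930179, inside the gene and 16385 bp from its lower end, had fold enrichments of 16.0 in the Grh list, 19.9 in the Grh titration, 29.0 in the Grh DBD, 24.0 in the Grh DBD titration, 16.7 in the Zld, 18.1 in the Zld titration, 29.5 in the Zld DBD, 25.5 in the Zld DBD titration, 25.9 in the Twi and 21.2 in the HA-Twi titration list. These placed it above 93.1% to 99.8% of the regions of each list. A locus at 2R:9949270-9950013, also inside the gene, had 16.4 in the Grh list, 21.1 in the Zld list and 25.1 in the Twi list, with 33.0 in the HA-Twi titration list. A further one at 2R:9955076-9955580 had from 15.5 (Grh list) to 28.9 (Grh DBD titration list). At the upper end of the gene, a locus of all lists had its summit 0 bp from the end (highest fold 9.87), while the locus nearest the lower end, at 385 bp, was in the Twi list alone with a fold of 1.34.

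Loci of single factors at Mef2 were weaker than the shared loci named above. They were not weaker than every shared locus, since that at 2R:9927889-9928495 had only 1.83 in the Twi list. The strongest Twi-only locus of all 8 genes was at 2R:9936036-9936270 inside Mef2, with a fold of 3.31 in the Twi list, higher than 80.5% of that list. The locus of Grh and its titration list at 2R:9956352-9956517, also inside the gene, had folds of 1.81 and 3.46. Singled out after its values were seen, a locus at 2R:9940199-9940457 had 9.81 in the Grh titration list and 2.22 in the Grh list, and also 1.71 in the Twi list, so it belonged to no single factor. The strongest Zld-only locus, at 2R:9943723-9943801, had 2.19 in the Zld list. A further Grh-only locus lay at 2R:9903751-9903988, near the border of the window, with a fold of 4.64 in the Grh titration list and no region in the Grh list. The region counts of Mef2 over the 10 lists were nearest to those of MYPT-75D, with a sum of absolute differences of 11 over 225 regions, and uzip, with 13.

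The window of tin held 17 loci, of which 5 were in all 10 lists, 8 in Twi lists only and 4 in lists of several factors. A locus at 3R:21378779-21378988, 112 bp below its lower end, was in all lists. It had 10.6 in the Grh list, 18.3 in the Grh titration, 9.92 in the Grh DBD, 8.93 in the Grh DBD titration, 21.6 in the Zld, 18.0 in the Zld titration, 10.4 in the Zld DBD, 8.46 in the Zld DBD titration, 10.8 in the Twi and 18.7 in the HA-Twi titration list. It stood above 85.6% to 98.6% of each list. A second strong locus at 3R:21376315-21377077 had 14.1 to 25.4 but lay inside the neighbouring gene mod(mdg4). The gene body of tin itself held 1 locus, in the Twi list alone, with a fold of 1.45. No locus of Zld or Grh lists only was found in its window.

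At the small gene bap, Twi-only loci made up most of the loci. Its window held 20 loci, of which 12 were in Twi lists only, 6 in lists of several factors and 2 in all 10 lists. That is 5.56 Twi-only loci per 10 kb, above 97.4% of all protein-coding genes. All 12 were in the Twi list alone, so the window had 20 regions in the Twi list and 2 in the HA-Twi titration list, a ratio of 10, against 2.83 for the whole lists. The nearest loci to its lower and upper ends, at 86 bp and 236 bp, were of this kind, with folds of 1.72 and 1.76. The strongest of the class, 3R:21394614-21395003, had 2.35. One of the 2 loci of all lists was the one beside tin, 9998 bp away by the strongest of its summits inside the window of bap. Its strongest summit over all lists, at 21378865, lay outside that window, so this locus counted for bap only at the border. The other, at 3R:21386193-21386408 between the genes, was 2570 bp below bap and had 6.40 (Zld DBD list) to 12.0 (Zld list).

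Between tin and bap, a locus at 3R:21387632-21387897 was in 9 lists, all but the Grh titration. It had 6.67 in the Twi list, which placed it above 92.2% of that list, and 3.78 in the HA-Twi titration list, above 34.6%. In the other lists it ranked above 28.0% to 58.9% of regions. Singled out after its values were seen, a locus at 3R:21392996-21393333, above bap, had 4.83 in the Twi list, 1.98 in the Zld DBD list and 1.75 in the Zld DBD titration list. It had no region in the HA-Twi titration list.

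**Figure D4:**
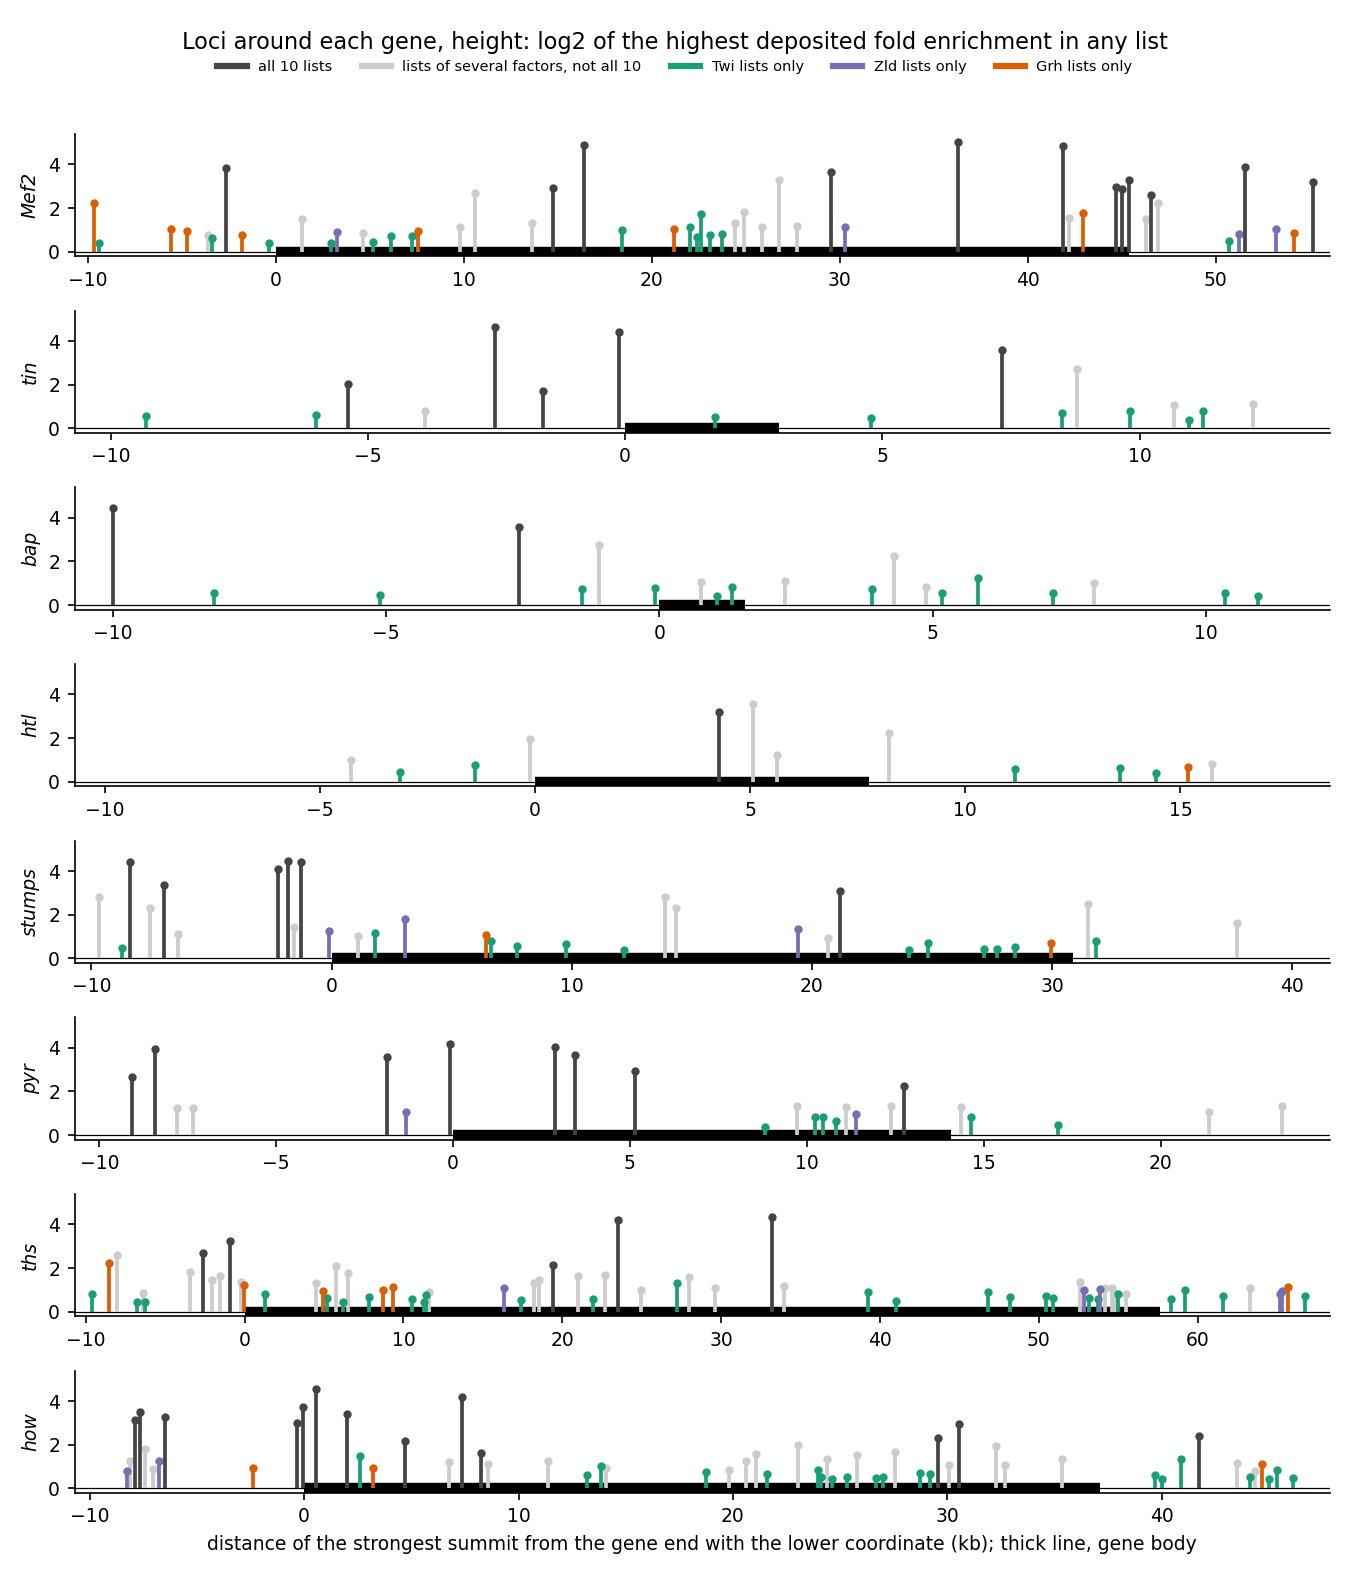
Loci around each gene, by distance of the strongest summit within the window from the gene end with the lower coordinate (kb, horizontal axis). Height is the log2 of the highest deposited fold enrichment in any list, colour the class and the thick line the gene body. Strong loci of all lists stand inside Mef2 and ths, below the lower end of stumps and near the lower ends of tin, pyr and how. At bap and htl, 2 and 1 loci are in all lists.

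The receptor gene htl had the fewest loci. Its window, which no other protein-coding gene enters, held 13: 1 in all 10 lists, 5 in Twi lists only, 1 in Grh lists only and 6 in lists of several factors. The 1 locus of all lists, at 3R:18049355-18049626 inside the gene, had 5.59 in the Grh list, 3.66 in the Grh titration, 3.43 in the Grh DBD, 2.70 in the Grh DBD titration, 9.28 in the Zld, 4.47 in the Zld titration, 4.12 in the Zld DBD, 4.54 in the Zld DBD titration, 8.88 in the Twi and 8.93 in the HA-Twi titration list. With 0.360 such loci per 10 kb, 13.7% of genes had fewer. Both gene ends had a locus that missed only some lists: 114 bp below the lower end, in 8 lists with a highest fold of 3.85, and 461 bp above the upper end, in 9 lists with 4.74. Without the DBD titration lists, 3 loci at htl were in all remaining lists, and with a −log10 q of at least 10 in every list there were 0.

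Beside the shared locus, htl held a wide neighbour at 3R:18049906-18050766, which was chosen for description after its values were seen. It had 8.63 in the Twi list, 11.6 in the HA-Twi titration, 2.71 in the Grh, 2.63 in the Grh titration, 2.33 in the Grh DBD, 3.97 in the Zld, 2.46 in the Zld titration and 1.93 in the Zld DBD list, and no region in either DBD titration list. Within each list it can be set against the shared locus beside it. The ratio was 0.972 in the Twi list and 1.30 in the HA-Twi titration list, and between 0.428 and 0.720 in the 6 others. The 2 Twi lists come from separate libraries, and in both the neighbour stood near or above the shared locus. Since the locus was chosen with the values of both lists known, the 2 lists are no independent check of each other. The region ran from 18049914 to 18050646 in the Twi list and from 18049920 to 18050766 in the HA-Twi titration list, with summits at 18050286 and 18050289. The summit of the Zld DBD list, at 18050288, lay beside these, while those of the Grh and Zld main lists were at 18050059 and 18050023.

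**Figure D5:**
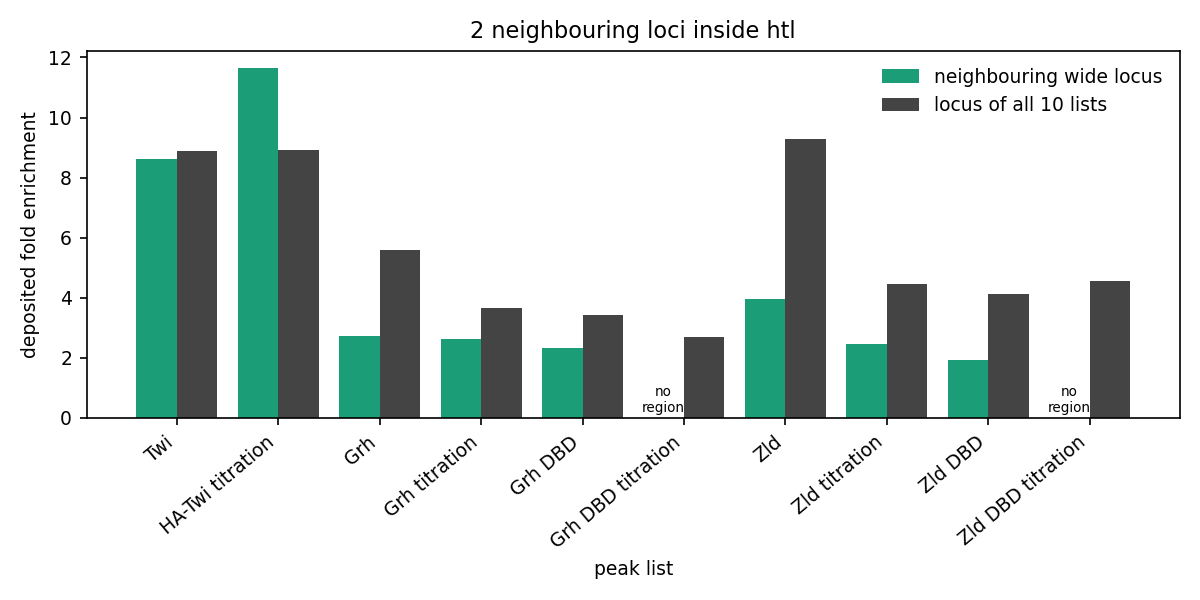
Deposited fold enrichment of the 2 neighbouring loci inside htl in each list, the wide neighbour and the locus of all 10 lists. The neighbour reaches 0.972 and 1.30 of the shared locus in the 2 Twi lists and 0.428 to 0.720 in the 6 other lists that hold it.

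The adaptor gene stumps had 33 loci: 6 in all lists, 12 in Twi lists only, 3 in Zld lists only, 2 in Grh lists only and 10 in lists of several factors. Of the 6 shared loci, 5 lay below the lower end of the gene and 1 inside it. The locus 3R:14575302-14575527 inside CG7987 had 14.0 to 22.1, and 3R:14568635-14569073 inside CG8066 had 7.68 to 21.3. The shared locus nearest to the lower end of stumps, 3R:14575830-14576039, lay 1289 bp below it with 8.20 to 21.1, and the one inside the gene, at 3R:14598156-14598516, had 3.32 to 8.59. A Zld-only locus at 3R:14580250-14580351, 3072 bp inside the gene, had 3.56 in the Zld list and 2.14 in the Zld titration list, higher than 46.6% and 14.3% of those lists. Nearest the lower end, at 122 bp, lay a locus of the Zld DBD list alone with 2.39. A locus in 5 lists at 3R:14591005-14591166 had 7.11 in the Zld list and 6.02 in the Twi list, and no region in any titration list.

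The ligand gene pyr had 24 loci, of which 8 were in all 10 lists, 33.3%, the highest share of the 8 genes. A further 6 were in Twi lists only, 2 in Zld lists only, none in Grh lists only and 8 in lists of several factors. The shared locus at 2R:11711967-11712340, 95 bp below the lower end, had 11.4 in the Grh list, 10.8 in the Grh titration, 13.4 in the Grh DBD, 12.3 in the Grh DBD titration, 17.8 in the Zld, 10.1 in the Zld titration, 11.8 in the Zld DBD, 11.7 in the Zld DBD titration, 14.7 in the Twi and 12.9 in the HA-Twi titration list. It ranked above 80.0% to 98.6% of each list. A Zld-only locus 1320 bp below the lower end, at 2R:11710873-11710988, had 2.08 in the Zld list and 1.64 in the Zld titration list. The counts of pyr were nearest to those of Fas1, with a sum of differences of 4, and Csl4, with 6. Those of ths were nearest to CG18675 and CG32333, at 29 each, while for tin, stumps and how 3 genes, for bap 4 and for htl 5 genes were at or below the value of the second nearest.

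The second ligand gene, ths, had more loci than any of the others, 66, but only 5 in all 10 lists, or 7.58%. A further 26 were in Twi lists only, 5 in Zld lists only, 6 in Grh lists only and 24 in lists of several factors. It had 56 regions in the Twi list and 8 in the HA-Twi titration list, a ratio of 7. The strongest shared locus, at 2R:11789891-11790369 inside the gene, had 7.64 (Zld DBD list) to 20.1 (HA-Twi titration list), with 9.29 in the Grh, 19.8 in the Zld and 12.1 in the Twi list. No shared locus lay within 500 bp of its ends; the nearest to the lower end was 931 bp away. Nearest that end, at 46 bp, was a Grh-only locus at 2R:11756742-11756818, with 2.34 in the Grh list and 2.27 in the Grh titration list. Its strongest Twi-only locus, at 2R:11783982-11784140, had 2.48. Singled out after its values were seen, a Grh-only locus at 2R:11748166-11748355 had 4.77 in the Grh titration list and no region in the Grh list. Loci of all 10 lists thus made up 33.3% of those at pyr and 7.58% of those at ths, and no test of that difference was made.

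The gene how had 58 loci: 13 in all lists, the most of the 8 genes, 20 in Twi lists only, 2 in Zld lists only, 3 in Grh lists only and 20 in lists of several factors. A shared locus 40 bp below its lower end, at 3R:22042042-22042286, had 9.08 to 13.2, and a stronger one 553 bp inside the gene, at 3R:22042598-22042842, had 10.9 in the Grh list, 23.7 in the Grh DBD, 12.7 in the Zld, 22.8 in the Zld DBD and 19.0 in the Twi list. The locus of both Twi lists and no other was inside how at 3R:22044628-22044884, 2591 bp from the lower end, with 2.76 in the Twi list and 1.97 in the HA-Twi titration list. It stood above 76.3% of the Twi list but above only 6.47% of the HA-Twi titration list. Over all protein-coding genes, 4.42% had such a Twi locus in their window, 6.12% such a Zld locus and 14.4% such a Grh locus, while the 8 genes, with their longer windows, had 1, 2 and 2.

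The position of the loci varied from gene to gene. Of the 272 loci, 153 had a summit inside 1 of the 8 genes. Of the loci of all lists inside the gene of their window, Mef2 held 8 of its 12, and tin and bap held none. Inside any protein-coding gene lay 71.3% of the 272 loci, against 70.5% of all loci. For loci of all lists the share was 68.0% against 62.5%, and for Twi-only loci 74.2% against 70.5%. Within 500 bp of an end of these genes lay 6 of the 50 shared loci. Of the 97 Twi-only loci, 1 at Mef2 and 2 at bap lay so near an end. Shared loci had a median width of 322.5 bp, against 298 bp over all loci of the class, and Twi-only loci of 98 bp, against 89 bp. A shared locus within 500 bp of an end was found at 4 of the 8 genes, Mef2, tin, pyr and how, against 57.3% of all protein-coding genes. At least 1 shared locus and at least 1 Twi-only locus stood in the window of each of the 8 genes, against 87.4% and 85.3% of all protein-coding genes. Zld-only and Grh-only loci stood at 5 genes each, against 54.4% and 72.9%.

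Most loci in lists of several factors included the long Twi list. Of the 89, 84 held a region of the Twi list, 94.4% against 92.3% of all loci of the class, and 29 were in that list and 1 other, 32.6% against 31.9%. The Grh list was present at 57 of them, 64.0% against 64.4%, the Zld list at 43, 48.3% against 41.8%, and the HA-Twi titration list at 20, 22.5% against 20.4%. These shares were near those of all loci of the class. In all, 57 of the 272 loci, or 21.0%, were in the 6 full-length lists, against 23.0% of all loci. Of the 57, 7 missed at least 1 of the DBD lists, 2.57% of the 272 loci against 2.43% of all loci.

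Of the further genes of the FGF and Ras pathway, all 15 listed genes had a locus of all 10 lists, against 87.4% of protein-coding genes, and all 15 had a Twi-only locus, against 85.3%. Their windows were long, with a median of 36193 bp against 22161 bp. Per 10 kb the median was 3.13 loci of all lists, against 1.92 over all protein-coding genes, and 1.33 Twi-only loci, against 1.69. Zld-only loci stood at 11 genes, 73.3% against 54.4%, and Grh-only loci at 12, 80.0% against 72.9%. Per 10 kb the median was 0.292 Zld-only loci, against 0.323, and 0.733 Grh-only loci, against 0.477. Loci of both Twi lists and of no other factor numbered 6, or 9.61 per megabase of window against 1.77 over all protein-coding genes. They stood in the windows of 5 of the 15 genes, against 4.42% of genes. These were the phosphatase gene csw, the tracheal FGF receptor gene btl, Ras85D, the tracheal FGF ligand gene bnl and the ETS factor gene pnt. In the window of csw, X:2084543-2084720 lay inside Unc-76, with 2.07 in the Twi list and 2.79 in the HA-Twi titration list. A further locus inside csw, X:2103970-2104196, had 1.33 and 2.44 in the same order. The locus of btl lay inside Frl and had 1.69 and 2.81. That of Ras85D lay outside the gene and had 1.70 and 1.54. Inside pnt, the locus 3R:23300467-23300680 had 2.15 in the Twi list and 1.88 in the HA-Twi titration list, and inside bnl, 3R:19815405-19815603 had 1.78 and 2.31. For Zld, such loci stood at Raf and aop, 13.3% of the listed genes against 6.12% of all, or 3.20 per megabase against 2.50. For Grh they stood at aop and bnl, 13.3% against 14.4%.

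Of 20 further mesoderm, heart and muscle regulators, 19 had a locus of all lists, against 87.4% of protein-coding genes, and 19 a Twi-only locus, against 85.3%. A Zld-only locus stood at 12 of the 20, against 54.4%, and a Grh-only one at 17, against 72.9%. Their windows had a median of 26970 bp, and per 10 kb the median was 1.47 loci of all lists, against 1.92, and 1.94 Twi-only loci, against 1.69. Zld-only loci stood at 0.307 per 10 kb, against 0.323, and Grh-only loci at 0.437, against 0.477. Loci of both Twi lists stood at 2 of the 20, twi and Doc2, against 4.42% of genes, or 3.04 per megabase against 1.77. The locus of Doc2 lay 1373 bp above the gene, with 1.34 in the Twi list and 1.57 in the HA-Twi titration list. The locus in twi, 2R:23047827-23048079, had 6.22 in the Twi list and 6.23 in the HA-Twi titration list, and it lies in the gene of the expressed factor itself. For Zld, eve and srp had such loci in their windows, with 3.80 and 2.46 at eve and 2.20 and 1.94 at srp. Neither lay inside the named gene. The first was inside TER94, 9046 bp above eve, and the second inside GATAe, 5096 bp above srp. The genes eve and srp are 10% of the 20, against 6.12% of all genes. Per megabase of window, such Zld loci stood at 3.04 against 2.50. For Grh, twi had 1, which is 5% of the listed genes against 14.4%.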

How the data were processed

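The series has 48 ATAC-seq libraries in 24 groups, and 10 deposited narrowPeak lists (dm6) were analysed. The submitters' processing notes name deepTools 3.5.1, Bowtie2, MACS2, DESeq2 and featureCounts. Not given in the sources used here are their roles, settings and any shift of reads for the transposase. Per the labels, the authors' lists pool libraries. In the deposited lists each region has a fold enrichment (a ratio), a −log10 q (at least 1.30) and a score. The 2 DBD titration lists hold 200 bp windows without a summit, so the midpoint was used.

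Rows of 1 peak were joined to 1 region with its strongest summit, and regions of all lists overlapping by at least 1 bp were joined to loci. A locus of 1 factor only lies in no list of another factor; DBD lists count for their factor. A percentile is the share of a list's regions with a lower fold enrichment. Gene positions came from RefSeq Release 6, which gave no strand or exons here, so gene ends are called lower and upper by coordinate. Shares carry exact Clopper-Pearson 95% intervals, for counting error only. No test was made.

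The members and gene lists were chosen with earlier results of these data known. All 8 genes are named, with each locus in both the main and the titration list of 1 factor only, the strongest of each class and that nearest a gene end. The most similar genes have the smallest sum of absolute differences over 10 region counts and are named unless tied. Other loci named were chosen after their values were seen. Motif shares, exon positions and gene starts were planned but not analysed here, since no genome sequence was used. phl and Gap1 were matched as Raf and RasGAP1. Joining was tested on simulated data, with 0 differences from direct comparison over 1500 regions. The software was Python 3.11.15 with scipy 1.17.1, pandas 2.3.3, matplotlib 3.10.9 and numpy 2.4.6.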

Additional observations from a re-analysis of the deposited data

How the results depend on the processing

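No value per library exists, so no replicate could be left out. No paired analysis was possible because each list pools libraries and the results come from no test. Of 43 recomputed counts of the 4 classes, 26 stayed within 1.5 times the value given above and 17 did not. With the gene body alone, loci of all 10 lists numbered 24, of Twi lists only 59, of Zld lists only 8 and of Grh lists only 9. With 20 kb on either side, loci of all lists numbered 76, and with 5 kb Zld-only loci numbered 10 and Grh-only loci 13. With a −log10 q of at least 10, Twi-only loci numbered 31 (26.7% against 23.8% of all loci), Zld-only loci 4 and Grh-only loci 7. With lists of equal length, Twi-only loci numbered 18, and with the 6 full-length lists Zld-only loci numbered 9. Loci in both the main and the titration list of their factor numbered 1 for Twi, 2 for Zld and 2 for Grh. Comparing main-list regions directly, chosen after the data were seen, gave 10 Zld-only and 8 Grh-only regions; it added a region at 2R:9927889-9927954 in Mef2 to the Zld regions found in both Zld lists. The smaller numbers came with narrower windows, fewer regions, fewer lists, the demand for both lists of a factor, or a count of main-list regions only. Of the counts per gene, 205 of 312 stayed within 1.5 times. Depth per library is unknown and lists differ in length, so absence from a list does not show closed chromatin.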
